A study of Homo sapiens with 12 samples.

Results

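PSAT1, ASNS, TRIB3 and SHMT2 are 4 genes linked to the transcription factor ATF4, and they were followed here on 12 arrays of 2 human skin squamous carcinoma lines given an mTOR inhibitor. Members were the probe sets annotated to these symbols in the deposited table. Where a gene has several, the one with the highest mean over all arrays stands for it, and each member had 1. All 4 passed the filter on low levels, out of 14884 genes with a named probe set and 10613 genes tested.

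The groups were HSC-1 cells with everolimus, HSC-1 cells with DMSO, A431 cells with everolimus and A431 cells with DMSO, with 3 arrays each. Everolimus, a rapamycin analogue that blocks mTOR complex 1, was given at 100 nM, DMSO is its vehicle, and both lasted 72 h. HSC-1 and A431 are established lines labelled as skin squamous cell carcinoma, cultured in DMEM with fetal bovine serum at a level of 10 or 20%, which the labels do not tie to a line. Each line is a single model, nothing in the labels says that the arrays of a group are separate cultures, and p-values therefore read the spread between arrays, which may be technical.

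In cells that make serine, PHGDH, PSAT1 and PSPH act in turn on a glycolytic intermediate. PSAT1 is the aminotransferase of the middle step. SHMT2 works in mitochondria, where it splits serine into glycine and a carbon unit that folate carries to nucleotide synthesis. ASNS makes asparagine from aspartate and glutamine. TRIB3 is a pseudokinase induced under amino acid and endoplasmic reticulum stress, and it can restrain ATF4 activity. ATF4 protein is made when stress kinases phosphorylate the initiation factor eIF2, and mTOR complex 1 also raises its translation. These 4 genes are among its known targets.

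The values are log2 expression from RMA, which forces all arrays onto a shared distribution. A shift of the whole RNA content of a cell is therefore hidden, and fewer expressing cells and less RNA per cell cannot be told apart. Array medians ran from 4.34 to 4.39. Over probe sets, the correlation within a group was 0.989 to 0.992, that with the other treatment in the same line was 0.987 to 0.991, and that with the other line 0.955 to 0.962. Of 12 squamous keratinocyte markers, 8 had a probe set and all 8 lay above the array median on each of the 12 arrays. The melanocyte genes TYR, TYRP1 and MLANA, the endothelial genes PECAM1, VWF and KDR and the fibroblast gene DCN lay below it on every array. The melanocyte-list genes MITF and SOX10 and the endothelial-list gene CLDN5 lay above it on all 12 arrays, while the fibroblast gene LUM lay above it on the 6 A431 arrays. Of the leukocyte markers, 3 of 8 had a probe set (CD14, CD68 and NKG7), and 2 of the 3 were above the median on all arrays.

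The promoters of PSAT1 and ASNS are shown because these members changed most in HSC-1. They come from RefSeq windows for GRCh38.p14, each cut to the 250 bases before an annotated start. PSAT1 has 1 window, shown whole. ASNS has 2, both inside the span of its gene record, and of the one farther upstream the 30 bases around its match are shown. Capitals mark matches to TGATGNAA, the core of the C/EBP-ATF composite element that ATF4 can bind, and to CCAAT, the box of the factor NF-Y. Both strands were searched, and the motifs do not overlap in these stretches.
PSAT1, chr9:78296875-78297124, plus strand: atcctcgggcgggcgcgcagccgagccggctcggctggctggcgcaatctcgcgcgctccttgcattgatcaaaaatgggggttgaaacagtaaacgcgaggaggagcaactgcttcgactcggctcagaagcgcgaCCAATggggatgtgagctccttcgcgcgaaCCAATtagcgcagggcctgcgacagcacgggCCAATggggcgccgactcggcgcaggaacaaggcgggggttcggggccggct
ASNS, chr7:97872458-97872487, minus strand: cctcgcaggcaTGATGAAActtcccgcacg
The farther upstream ASNS window held TGATGAAA at 68 to 61 bases before its start on the gene's strand, and no CCAAT. The other ASNS window held neither motif, nor did any of the 3 TRIB3 windows, which also lie inside their gene's span. A match to TGATGNAA occurred in 3.14% of the 35116 promoter windows of the table and in 1.64% of the 11367 windows of tested genes. The PSAT1 window held CCAAT at 113 to 109, at 83 to 79 and at 52 to 48 bases before the start, and no TGATGNAA. At least 1 CCAAT was found in 32.8% of the windows of tested genes, and at least 3 in 3.84%. CACGTG, the E-box, was in none of these windows and in 8.25% of those of tested genes. These matches are descriptions of letters, not of binding.

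With everolimus, all 4 members fell in HSC-1 and none passed the test in A431. PSAT1 fell most, to 58.5% of its DMSO level, and ASNS, SHMT2 and TRIB3 fell to between 74.2 and 78.4%. For background, 11.3% of the genes tested fell and 7.34% rose in HSC-1, while 4.33% fell and 2.39% rose in A431.

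PSAT1 stood at 9.37, 9.20 and 9.24 in HSC-1 with everolimus, against 10.05, 10.04 and 10.05 in HSC-1 with DMSO. All 3 everolimus arrays were lower, with a gap of 0.67 between the nearest arrays of the groups. The log2 difference was -0.77 ± 0.04 (SE, 95% interval -0.87 to -0.68, limma adjusted p = 1.08e-09), a 1.71-fold fall and the 36th largest fall among the genes tested. In A431, PSAT1 stood at 10.02, 9.95 and 10.04 with everolimus, against 9.99, 9.94 and 9.92 with DMSO. These groups overlapped, and the log2 difference was 0.05 ± 0.04 (95% interval -0.04 to 0.15, adjusted p = 0.573).

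ASNS stood at 6.90, 6.94 and 6.91 in HSC-1 with everolimus, against 7.33, 7.35 and 7.36 in HSC-1 with DMSO. The 2 groups were tight and separated by 0.40 at their nearest arrays. The log2 difference was -0.43 ± 0.05 (95% interval -0.54 to -0.32, adjusted p = 1.34e-05), a 1.35-fold fall. In A431, ASNS stood at 7.49, 7.51 and 7.48 with everolimus, against 7.40, 7.51 and 7.43 with DMSO. Here the groups overlapped, with the second DMSO array at the level of the everolimus arrays, and the log2 difference was 0.05 ± 0.05 (95% interval -0.06 to 0.16, adjusted p = 0.683).

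SHMT2 had larger standard errors than PSAT1 and ASNS. It stood at 5.98, 6.30 and 6.14 in HSC-1 with everolimus, against 6.47, 6.59 and 6.45 in HSC-1 with DMSO. The 3 everolimus arrays were again below the 3 DMSO arrays, by 0.15 at the nearest, and the log2 difference was -0.36 ± 0.08 (95% interval -0.53 to -0.19, adjusted p = 0.00402). In A431, SHMT2 stood at 7.07, 6.87 and 6.98 with everolimus, against 6.84, 6.88 and 6.91 with DMSO. The groups overlapped, and the log2 difference was 0.10 ± 0.08 (95% interval -0.07 to 0.27, adjusted p = 0.579).

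TRIB3 stood at 6.50, 6.55 and 6.49 in HSC-1 with everolimus, against 6.99, 6.80 and 6.81 in HSC-1 with DMSO. The first DMSO array was the highest, and all 3 everolimus arrays lay below the DMSO arrays by at least 0.25. The log2 difference was -0.35 ± 0.07 (95% interval -0.49 to -0.21, adjusted p = 0.00107). In A431, TRIB3 stood at 6.74, 6.80 and 6.77 with everolimus, against 6.89, 6.97 and 6.89 with DMSO. The everolimus arrays were all lower here too, by 0.09 at the nearest. The log2 difference of -0.14 ± 0.07 (95% interval -0.28 to -0.0032) had an unadjusted p of 0.0454 and did not pass after adjustment (adjusted p = 0.248).

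Everolimus arrays all below DMSO arrays were thus seen for 4 of 4 members in HSC-1, where 19.6% of the genes tested had that pattern. They were seen for 1 of 4 in A431, where 13.5% had it. The members were chosen with earlier results of these data known and were read on the same arrays. Their counts beside the background are therefore descriptions.

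**Figure D1:**
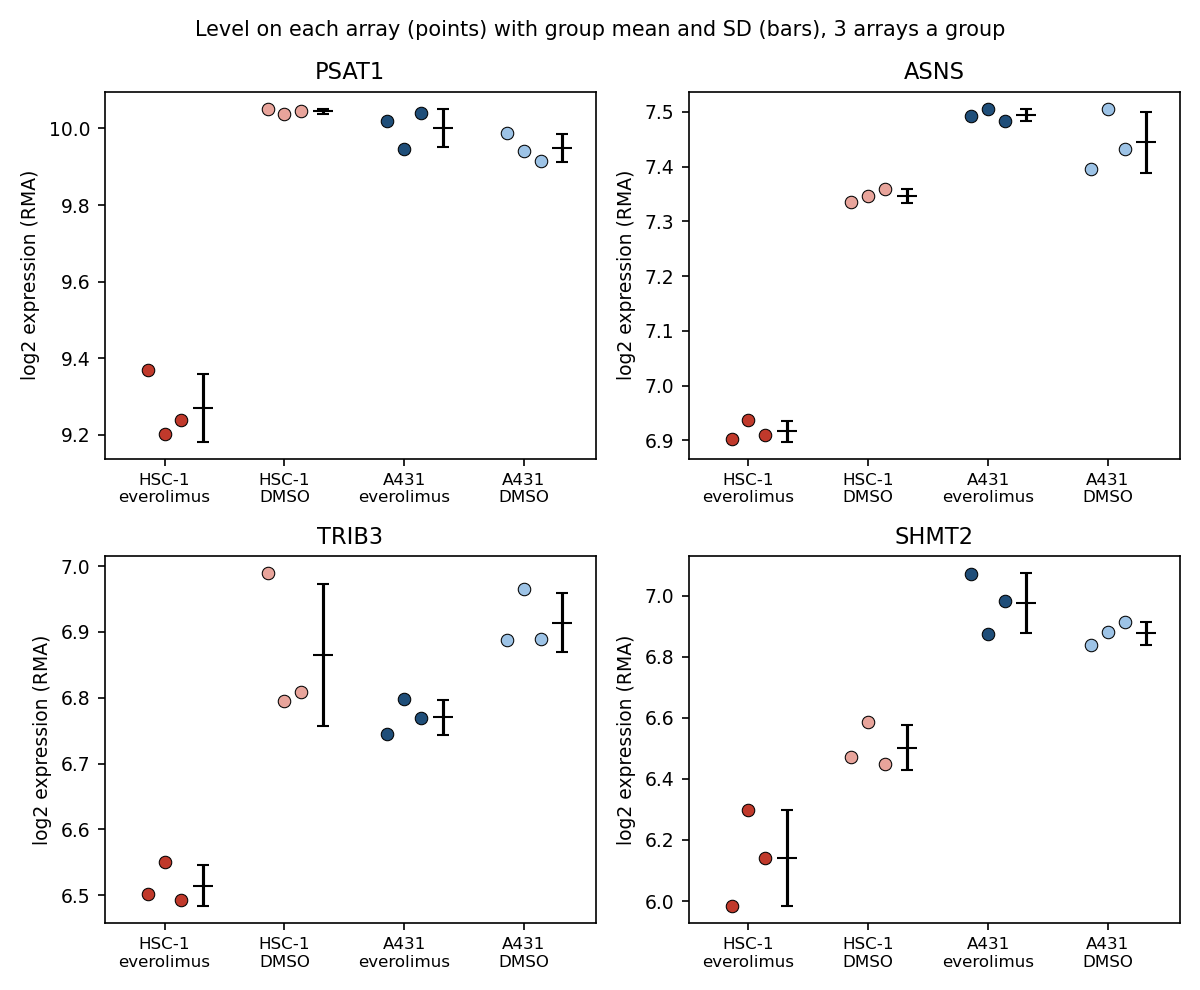
Level of each member (log2 expression from RMA, vertical axis) on each of the 12 arrays, by group, with points for arrays and bars for the group mean and SD of 3 arrays; vertical axes differ between panels and do not start at 0. In each panel the 3 HSC-1 everolimus arrays are the lowest of the 12, and the gap between the nearest HSC-1 everolimus and HSC-1 DMSO arrays is widest for PSAT1, at 0.67.

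The difference between the lines in the everolimus effect was tested directly, HSC-1 minus A431. It passed for PSAT1 at -0.83 ± 0.06 (adjusted p = 2.33e-07), for ASNS at -0.48 ± 0.07 (adjusted p = 0.000333) and for SHMT2 at -0.46 ± 0.12 (adjusted p = 0.0144). For TRIB3 it was -0.21 ± 0.09 and did not pass (95% interval -0.41 to -0.01, adjusted p = 0.192). Of all genes tested, 5.69% passed with a negative and 4.84% with a positive difference.

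The lines in DMSO were close in 3 of the 4 members. SHMT2 was lower in HSC-1, at 77.1% of its A431 level, and none of its 3 HSC-1 arrays reached the A431 arrays. Its log2 difference, HSC-1 minus A431, was -0.37 ± 0.08 (adjusted p = 0.000574). For PSAT1 the difference was 0.10 ± 0.04, with all 3 HSC-1 arrays above the A431 arrays, and it lay near the threshold (95% interval 0.0041 to 0.19, adjusted p = 0.0678). For ASNS it was -0.10 ± 0.05 (95% interval -0.21 to 0.01, adjusted p = 0.121), and for TRIB3 -0.05 ± 0.07 (95% interval -0.19 to 0.09, adjusted p = 0.560). The HSC-1 arrays of ASNS all lay below its A431 arrays, by 0.04 at the nearest, while those of TRIB3 overlapped. How many of all genes tested had separated arrays in DMSO was not counted, so these separations have no background. In the same comparison 29.2% of the genes tested were higher and 30.2% lower in HSC-1.

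The order of the group means differed between members. PSAT1 averaged 9.27 ± 0.09 in HSC-1 with everolimus, against 10.04 ± 0.01 in HSC-1 with DMSO, and 10.00 ± 0.05 in A431 with everolimus, against 9.95 ± 0.04 in A431 with DMSO (SD, n = 3 each). The 3 upper means thus lay within 0.10 of each other. SHMT2 averaged 6.14 ± 0.16 in HSC-1 with everolimus, against 6.50 ± 0.07 in HSC-1 with DMSO, and 6.98 ± 0.10 in A431 with everolimus, against 6.88 ± 0.04 in A431 with DMSO. Both HSC-1 groups were below both A431 groups for SHMT2.

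**Figure D2:**
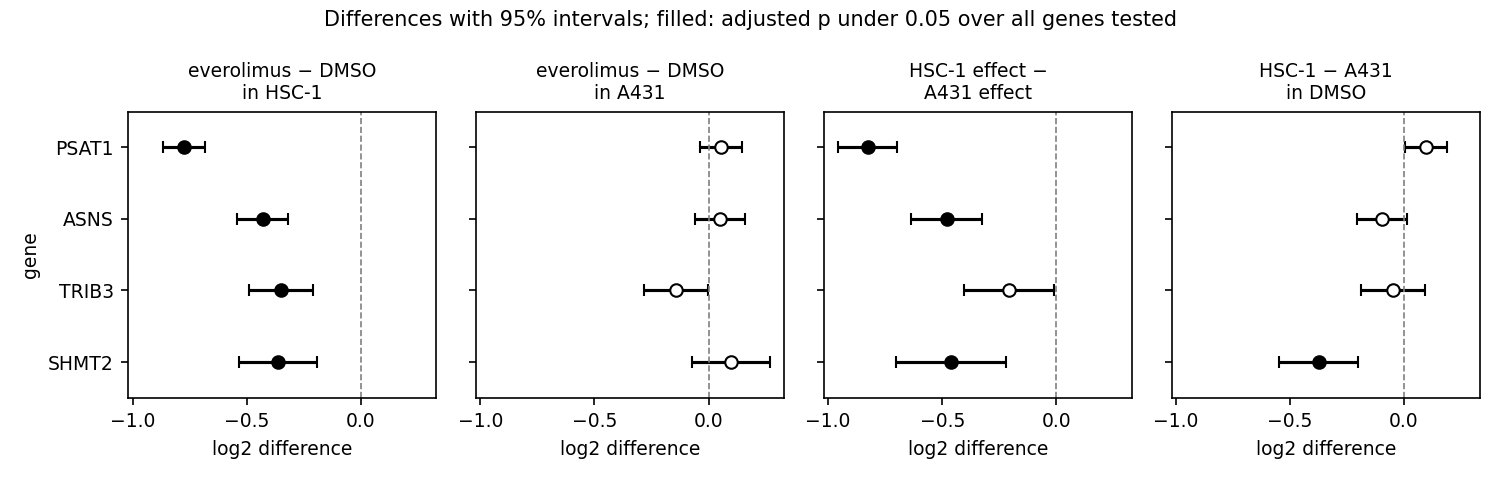
Log2 difference (horizontal axis) of each member in the 4 comparisons, with 95% intervals from the fit; filled points have an adjusted p under 0.05 over all genes tested. In HSC-1 all 4 intervals lie below 0, from -0.77 for PSAT1 to -0.35 for TRIB3, and in A431 no point is filled.

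Around PSAT1 and SHMT2, the list of serine, glycine and one-carbon enzymes had 14 tested genes of 22. In HSC-1, 4 fell (PSAT1, CTH, SHMT2 and PSPH) and 0 rose, and the median log2 difference was -0.14, against -0.02 over all genes tested. Without PSAT1 and SHMT2, 2 of 12 fell and the median was -0.11. Of all genes tested, 11.3% fell in HSC-1. CTH, which makes cysteine from cystathionine, fell by 0.43 ± 0.10 (adjusted p = 0.00363). In the route to serine, PSAT1 had the largest log2 difference of the 3 enzymes. PHGDH, the first enzyme, averaged 8.05 ± 0.01 in HSC-1 with everolimus and 8.12 ± 0.03 with DMSO, a log2 difference of -0.07 ± 0.04 that did not pass (adjusted p = 0.275). PSPH, the last enzyme, averaged 9.56 ± 0.04 with everolimus and 9.70 ± 0.04 with DMSO (log2 difference -0.14 ± 0.05, adjusted p = 0.0395). The PSPH call was lost on leaving out A431 DMSO replicate 2 or any HSC-1 array but DMSO replicate 3 (adjusted p from 0.0516 to 0.157), without the level filter (0.0548) and without the intensity trend (0.134). SHMT1, the cytosolic counterpart of SHMT2, differed by -0.15 ± 0.09 (adjusted p = 0.301).

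In A431, 1 gene of the same list rose, 1 fell, and the other 12 did not pass. Among all genes tested, 2.39% rose and 4.33% fell there. MTHFD1L, the mitochondrial formyltetrahydrofolate synthetase, rose by 0.25 ± 0.06 (adjusted p = 0.0153). Its call ended on omitting A431 DMSO replicate 1 or 2 or everolimus replicate 1 or 3 (adjusted p from 0.0501 to 0.0759). CTH fell by 0.38 ± 0.10 (adjusted p = 0.019), a call that ended on omitting A431 DMSO replicate 2 or everolimus replicate 1 or 2 (adjusted p from 0.0769 to 0.114). PHGDH differed by 0.05 ± 0.04 (adjusted p = 0.555), PSPH by -0.11 ± 0.05 (adjusted p = 0.187) and SHMT1 by -0.26 ± 0.09 (adjusted p = 0.105). Under 1 of 22 alternatives PSPH passed (adjusted p = 0.0387). A negative difference between the lines passed for 5.69% of all genes tested. In the test of the difference between the lines, 4 genes of the list passed, all with the more negative effect in HSC-1. These were PSAT1, SHMT2, MTHFD1L at -0.39 ± 0.09 (adjusted p = 0.00545) and the thymidylate synthase TYMS at -0.30 ± 0.08 (adjusted p = 0.0191). The TYMS call ended on omitting A431 DMSO replicate 3 or HSC-1 DMSO replicate 2 (adjusted p of 0.0532 and 0.0596) or the intensity trend (0.067).

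In DMSO the serine route differed between the lines at its other steps. PSPH was higher in HSC-1 by 0.99 ± 0.05 (adjusted p = 8.6e-13) and SHMT1 by 0.93 ± 0.09 (adjusted p = 3.53e-08), while PHGDH was lower, with a difference of -0.33 ± 0.04 (adjusted p = 1.63e-06). CTH had a difference of -1.68 ± 0.10 and DLD, a subunit of the glycine cleavage system, of 1.12 ± 0.06. In all, 4 of the list's 14 tested genes were higher and 6 lower in HSC-1. Over all genes tested, 29.2% were higher and 30.2% lower there.

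Around ASNS, 8 of 16 enzymes of asparagine, glutamine and proline metabolism and their neighbours were tested. In HSC-1, 2 fell (ASNS and ASS1) and 0 rose. Without ASNS, 1 of 7 fell, where 11.3% of all genes tested fell. ASS1 is the argininosuccinate synthase, which like ASNS uses aspartate. ASS1 averaged 9.12 ± 0.02 with everolimus and 9.60 ± 0.03 with DMSO in HSC-1, and fell by 0.48 ± 0.04 (adjusted p = 5.69e-08). In A431 it differed by -0.03 ± 0.04 (adjusted p = 0.753), and the difference between the lines was -0.45 ± 0.05 (adjusted p = 2.14e-05). The remaining 6 genes did not pass in HSC-1, and the list's median there was -0.01. In A431 the glutamine synthetase GLUL fell by 0.27 ± 0.08 (adjusted p = 0.039) and the ornithine aminotransferase OAT by 0.21 ± 0.05 (adjusted p = 0.0281). Leaving out any A431 array ended the GLUL call (adjusted p from 0.0644 to 0.154), as did dropping the level filter (0.0506), and leaving out A431 DMSO replicate 1 or 2 or everolimus replicate 1 or 2 ended that of OAT (adjusted p from 0.0686 to 0.132), as did dropping the intensity trend (0.109). In DMSO, GLUL differed by -1.65 ± 0.08, the pyrroline reductase PYCR1 by -0.84 ± 0.11 and ASS1 by -0.73 ± 0.04, all lower in HSC-1 with the test passed.

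Around TRIB3, 14 of 24 regulators and stress targets of the ATF4 branch were tested. In HSC-1, 2 fell (DDIT4 and TRIB3) and 0 rose, with a median of -0.08. Without TRIB3, 1 of 13 fell, with a median of -0.07, where 11.3% of all genes tested fell. In A431, 3 fell and 0 rose, with a median of -0.13, against 0.00 over all genes tested. For background, 4.33% of all genes tested fell in A431 and 2.39% rose. The ATF4 transcript itself averaged 8.54 ± 0.10 with everolimus and 8.53 ± 0.08 with DMSO in HSC-1, and 9.02 ± 0.06 and 9.01 ± 0.06 in A431. Its differences of 0.01 ± 0.06 in both lines did not pass (adjusted p of 0.953 in HSC-1 and 0.948 in A431). In DMSO it was lower in HSC-1, with a difference of -0.48 ± 0.06 (adjusted p = 4.58e-07). DDIT3, the stress factor CHOP, differed by -0.01 ± 0.16 in HSC-1 and by -0.14 ± 0.16 in A431, and did not pass in either (adjusted p of 0.968 and 0.703). Its HSC-1 means of 3.89 with everolimus and 3.90 with DMSO lay below the array medians of 4.34 to 4.39. It was above the median on only 6 of 12 arrays, so a change in HSC-1 may go unseen. ATF4 protein was not measured.

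DDIT4, which encodes the mTOR complex 1 inhibitor REDD1, fell in both lines, by 0.38 ± 0.04 in HSC-1 (adjusted p = 4.04e-06) and by 0.57 ± 0.04 in A431 (adjusted p = 1.15e-07). The difference between these effects, 0.19 ± 0.06, passed narrowly (adjusted p = 0.0495), and leaving out any array but HSC-1 everolimus replicate 3 ended the call (adjusted p from 0.0544 to 0.123). So did dropping the level filter (0.0688) or the intensity trend (0.152), a robust variance prior (0.0524) and repeated quantile normalization (0.0695). The stress cytokine GDF15 fell in A431 by 0.43 ± 0.08 (adjusted p = 0.00368). EIF2AK3, the eIF2 kinase PERK, fell there by 0.36 ± 0.08 (adjusted p = 0.0138), a call that ended on omitting A431 DMSO replicate 1 or everolimus replicate 1 or 2 (adjusted p from 0.059 to 0.0689). In HSC-1, GDF15 differed by -0.22 ± 0.08 (adjusted p = 0.079) and EIF2AK3 by -0.13 ± 0.08 (adjusted p = 0.34), and neither passed. Their differences between the lines did not pass either (adjusted p of 0.321 and 0.267). In DMSO, GDF15 differed by 2.06 ± 0.08 and ATF3 by 1.01 ± 0.16, both higher in HSC-1, and the secreted glycoprotein STC2 by -1.30 ± 0.15. Of the list's 14 tested genes, 3 were higher and 7 lower in HSC-1, against 29.2% and 30.2% of all genes tested.

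TRIB3 has 2 relatives, TRIB1 and TRIB2, pseudokinases that recruit a ubiquitin ligase. In HSC-1, TRIB1 fell by 0.27 ± 0.09 (adjusted p = 0.0429), but the call ended on omitting any A431 DMSO array or any HSC-1 array but DMSO replicate 2 (adjusted p from 0.0502 to 0.228), the level filter (0.0603) or the intensity trend (0.0725). TRIB2 differed by -0.28 ± 0.10 and did not pass (adjusted p = 0.0579), but it passed under 3 of 22 alternatives (adjusted p from 0.0359 to 0.272 over all of them). In DMSO both were higher in HSC-1, TRIB1 by 0.51 ± 0.09 and TRIB2 by 0.46 ± 0.10, unlike TRIB3.

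**Figure D3:**
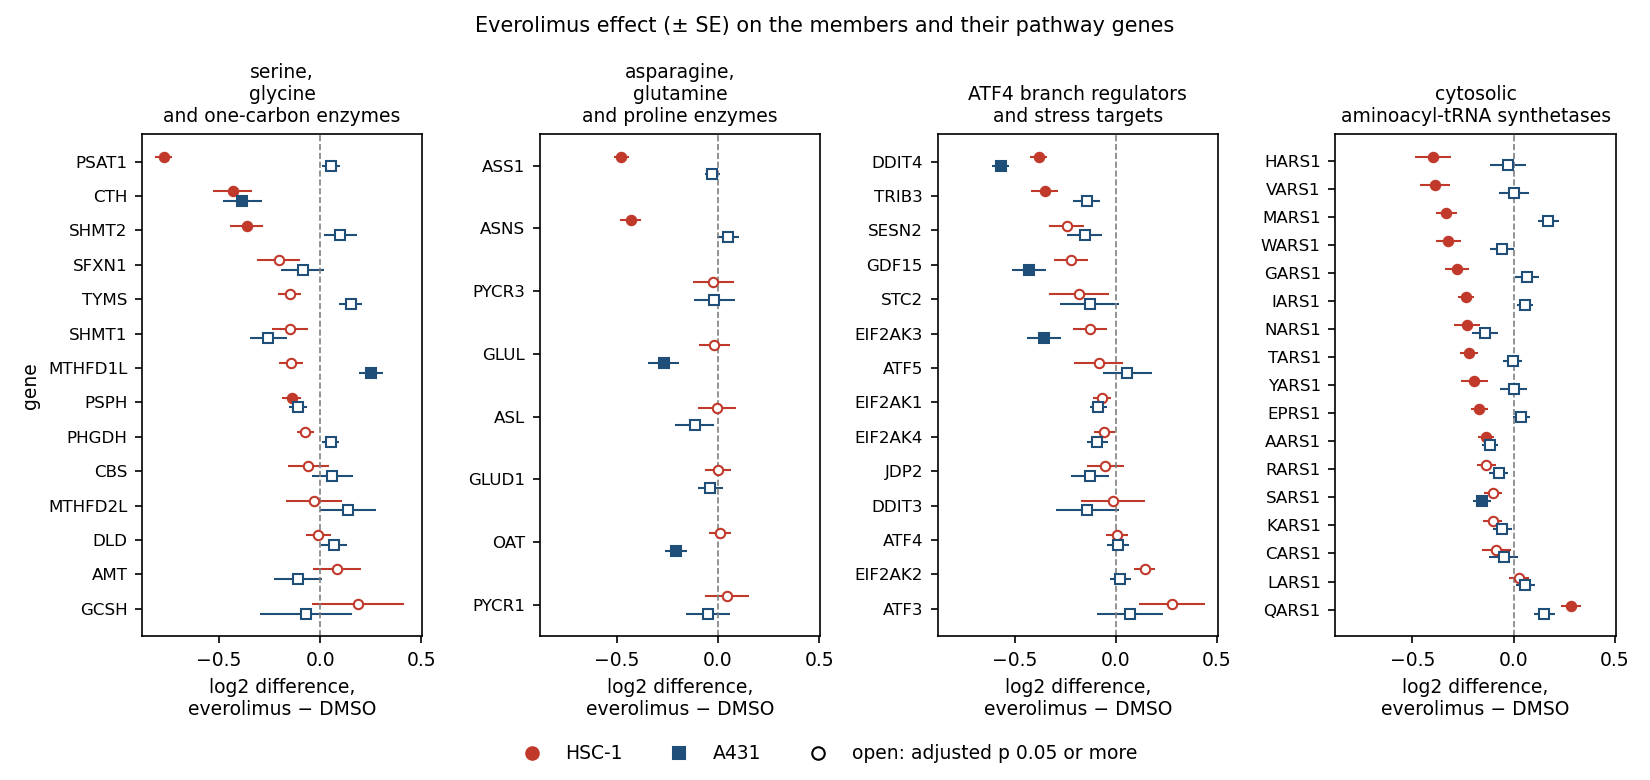
Log2 difference with everolimus (horizontal axis, bars are SE) in HSC-1 (circles) and A431 (squares) for the tested genes of the 4 lists around the members, ordered by the HSC-1 difference; filled points have an adjusted p under 0.05. PSAT1, ASNS and SHMT2 lie well below 0 in HSC-1 and at 0.05 to 0.10 in A431, and the ATF4 transcript lies at 0.01 in both lines.

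Further lists of the amino acid response were examined. Aminoacyl-tRNA synthetases load amino acids onto tRNA, and many respond to ATF4. Of 17 tested of 20, 11 fell and 1 rose in HSC-1, with a median of -0.19. Among all genes tested, 11.3% fell and 7.34% rose there, with a median of -0.02. HARS1 fell by 0.40 ± 0.09, VARS1 by 0.39 ± 0.07 and MARS1 by 0.33 ± 0.05 (adjusted p of 0.00402, 0.00107 and 0.000227). QARS1, picked out because it was the rise, rose by 0.28 ± 0.05 (adjusted p = 0.000659). In A431, 0 rose and SARS1 fell by 0.16 ± 0.04 (adjusted p = 0.04), a call that ended on omitting any A431 array but everolimus replicate 3, HSC-1 DMSO replicate 1 or 2, or HSC-1 everolimus replicate 2 (adjusted p from 0.0525 to 0.166), the level filter (0.0598) or the intensity trend (0.122), and with the 6 A431 arrays alone (0.0669). For background, 4.33% of all genes tested fell in A431 and 2.39% rose. The difference between the lines in the everolimus effect passed for 6 genes, all with the more negative effect in HSC-1. Among all genes tested, 5.69% passed in that direction. MARS1 led at -0.50 ± 0.08, followed by VARS1 at -0.39 ± 0.11 and GARS1 at -0.35 ± 0.08. The VARS1 call ended on omitting A431 DMSO replicate 2, HSC-1 DMSO replicate 1 or HSC-1 everolimus replicate 2 (adjusted p from 0.0616 to 0.063), and that of GARS1 on omitting the intensity trend (0.0747). In DMSO, WARS1 differed by -2.02 ± 0.06, NARS1 by -1.41 ± 0.07 and TARS1 by 1.35 ± 0.05, within 4 higher and 7 lower in HSC-1. Over all genes tested, 29.2% were higher and 30.2% lower in that comparison. Without the intensity trend in the variance prior the HSC-1 falls numbered 7, and the genes that differed between the lines 3.

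The chaperone branch of the endoplasmic reticulum stress response had 9 tested genes of 16. In HSC-1, 5 fell and 1 rose, with a median of -0.35. Among all genes tested, 11.3% fell and 7.34% rose there, with a median of -0.02. The chaperone cofactor SDF2L1 fell by 0.57 ± 0.11, the transcription factor XBP1 by 0.45 ± 0.07 and the chaperone HYOU1 by 0.42 ± 0.05 (adjusted p of 0.00117, 0.000194 and 3.32e-06). ATF6, the rise, changed by 0.19 ± 0.05 (adjusted p = 0.0159) and lost its call without HSC-1 DMSO replicate 3 or everolimus replicate 1 or 2 (adjusted p from 0.0736 to 0.0745) or the intensity trend (0.0697). In A431, where 4.33% of all genes tested fell, the lectin chaperone CALR fell by 0.23 ± 0.04 (adjusted p = 0.000488). CALR also fell in HSC-1, by 0.35 ± 0.04 (adjusted p = 2.75e-06), and its difference between the lines did not pass (adjusted p = 0.189). HYOU1 fell in A431 by 0.20 ± 0.05 (adjusted p = 0.0108). The HYOU1 call ended on omitting A431 DMSO replicate 1 or everolimus replicate 2 (adjusted p of 0.0642 and 0.0556), and without the intensity trend (adjusted p = 0.0538). With the mean of its 2 probe sets, HYOU1 differed by only -0.04 in A431 (adjusted p = 0.813). A negative difference between the lines passed for 5.69% of all genes tested. The difference between the lines passed for XBP1 at -0.34 ± 0.10 (adjusted p = 0.0349) and for HYOU1 at -0.22 ± 0.06 (adjusted p = 0.031). For HYOU1, leaving out any array but the first A431 DMSO, the second A431 everolimus or the third HSC-1 everolimus array ended this call (adjusted p from 0.0558 to 0.0802), as did dropping the intensity trend (0.0882), and with the mean of both probe sets the difference was -0.37. For XBP1 it ended without replicate 2 or 3 of either A431 group, HSC-1 DMSO replicate 1 or 2 or HSC-1 everolimus replicate 3 (adjusted p from 0.0564 to 0.0923), the level filter (0.0526) or the intensity trend (0.0815). In DMSO, HYOU1 differed by 1.00 ± 0.05, XBP1 by -0.87 ± 0.07 and CRELD2 by -0.74 ± 0.10.

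Proliferation genes also fell in HSC-1. Of 18, 15 fell and 0 rose in HSC-1, with a median of -0.25. Among all genes tested, 11.3% fell and 7.34% rose there, with a median of -0.02. CDC20 fell by 0.54 ± 0.04, PLK1 by 0.51 ± 0.04 and CCNB1 by 0.45 ± 0.06, all regulators of mitosis. In A431, 0 fell and MKI67 rose by 0.16 ± 0.04 (adjusted p = 0.00968), a call that ended on omitting A431 DMSO replicate 2 (adjusted p = 0.0545) or the intensity trend (adjusted p = 0.106). For background, 4.33% of all genes tested fell in A431 and 2.39% rose. The difference between the lines in the everolimus effect passed for 14, all with the more negative effect in HSC-1. Among all genes tested, 5.69% passed in that direction. CDC20 led at -0.62 ± 0.06, followed by PLK1 at -0.50 ± 0.06 and CCNA2 at -0.49 ± 0.06. Without the intensity trend 9 passed. The mean level of the 18 genes ran from 8.55 to 8.60 on the HSC-1 everolimus arrays and from 8.84 to 8.86 on the HSC-1 DMSO arrays. In A431 it ran from 8.94 to 9.02 with everolimus and from 8.91 to 8.96 with DMSO. The part of proliferation in the members' falls was not tested. In DMSO the replication helicase genes MCM7, MCM5 and MCM3 differed by 1.35 ± 0.05, -0.88 ± 0.04 and -0.80 ± 0.04, within 4 genes higher and 8 lower in HSC-1. Of all genes tested, 29.2% were higher and 30.2% lower in that comparison.

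The genes most like each member were found by Pearson's r over the 12 arrays after centring each line on its own mean. These arrays share their treatment groups, so the r mostly reads the everolimus difference in HSC-1 and is a description. PSAT1 was most like the actin-binding gene COTL1 (r = 0.987), CDC20 (r = 0.984) and RNF24 (r = 0.982). ASNS was most like NCLN (r = 0.979), GLIPR1 (r = 0.973) and the phosphatidylserine synthase gene PTDSS1 (r = 0.9725). TRIB3 was most like AKAP8 (r = 0.955), the purine nucleoside phosphorylase PNP (r = 0.954) and MRPL2 (r = 0.9465). SHMT2 was most like TRMT112 (r = 0.944), NID1 (r = 0.912) and EPO (r = 0.911). No gene stood in the top 3 of more than 1 member. In HSC-1 these genes had log2 differences from -0.88 ± 0.05 for GLIPR1 to -0.21 ± 0.06 for TRMT112.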

How the data were processed

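The authors deposited log2 expression values per probe set for 12 arrays, which per the submitters' processing notes come from RMA in Affymetrix Expression Console (neither version nor genome build: not given in the sources used here). Groups and replicate numbers follow the sample titles. Symbols come from the platform annotation matched by Entrez identifier (16098 of 53617 probe sets named 1 gene, the rest none). A gene was tested where at least 3 arrays lay above their own median. Group means were fitted in limma (3.58.1, R 4.3.3), with variances moderated along intensity, and p-values were Benjamini-Hochberg adjusted over 10613 genes (threshold 0.05). The 4 members and 13 gene lists were chosen with earlier results of these data known. Named besides the members are up to 3 genes per list and comparison with the largest change past the threshold; the serine route, ATF4, DDIT3, DDIT4 and the tribbles; and the 3 genes most like each member. QARS1, ATF6 and TYMS were named after their values were seen. Marker lists are given as levels only, and the amino acid transporters and MTHFD2, which had no named probe set, are not analysed here. Alternatives were a replicate block, no or a stricter level filter, other variance priors, array weights, further centring or normalization, 6 arrays alone, averaged probe sets and each array left out. The procedure was tested on simulated data. The number of arrays limits the precision. Promoters are RefSeq's for GRCh38.p14.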

Additional observations from a re-analysis of the deposited data

Results flagged for a closer look

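The everolimus effect differed between the lines by a direct test for 3 of the 4 members, with a more negative effect in HSC-1 for each. As HSC-1 minus A431, it was -0.83 ± 0.06 for PSAT1 (adjusted p = 2.33e-07). For ASNS it was -0.48 ± 0.07 (adjusted p = 0.000333). For SHMT2 it was -0.46 ± 0.12 (adjusted p = 0.0144).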

How the results depend on the processing

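Each of the 4 members kept its direction and its side of the threshold under all 22 alternatives in HSC-1 and in A431, and under all 21 for the difference between the lines. In DMSO the same held except for PSAT1, which passed under 5 of the 22 alternatives. Its log2 difference there was 0.094 with array weights, 0.12 with median centring and 0.14 with quantile normalization applied again. It was 0.10 with the 6 arrays alone and 0.10 without HSC-1 everolimus replicate 1. Over the arrays left out, the log2 difference ran from 0.0793 to 0.12. Leaving out 1 array moved the HSC-1 difference of PSAT1 from -0.82 to -0.74, of ASNS from -0.44 to -0.42, of TRIB3 from -0.39 to -0.29 and of SHMT2 from -0.44 to -0.28. The replicate numbers did not pair the samples (correlations of same-numbered deviations from -0.15 to 0.07), and with the replicate block 621 genes were called in A431 and 1845 in HSC-1, with no member's call changed. The block ended the calls of PSPH in HSC-1 (adjusted p = 0.0643), of GLUL (0.0511) and SARS1 (0.0673) in A431 and of DDIT4 for the difference between the lines (0.0661). The A431 count of 714 genes was 438 without the intensity trend and 456 to 836 over the arrays left out, with 458 without A431 DMSO replicate 1 and 456 without A431 DMSO replicate 2. The near-zero difference of ATF4 turned sign with array weights (-0.0060 in A431 and -0.0179 in HSC-1) and ran from -0.0159 to 0.046 in A431 and from -0.0478 to 0.0478 in HSC-1 over the arrays left out. That of DDIT3 in HSC-1 ran from -0.1673 to 0.1677 over them. The causes were not tested. Of 1899 repeats for the other named genes, 114 lost a call, 4 gained one and 9 turned sign.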
